A study of Mus musculus with 2 samples.

Results

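The genes Clec2d, Clec2i, Klrb1b, Klrb1c and Klrb1f encode 2 C-type lectin-like ligands and 3 receptors of the NKR-P1 family. These 5 genes, taken by symbol from the deposited gene lists, were read from the 55357 genes of 2 single-cell RNA libraries of mouse ileal T cells. Clec2d was selected on its summed UMIs, chosen by a lower level in the library labelled SAP than in that labelled Control, so its difference between them is described and not tested. In the study, dendritic cells were loaded with phages taken from healthy mice (Control) or SAP mice and then cultured with gut T cells from germ-free mice. FucoID, an enzymatic reaction that tags the surface of T cells touched by a dendritic cell with fucosyl-biotin, was used to separate these from bystander T cells. The labels do not spell out SAP, the strain, age or number of mice, or whether tagged cells alone were sequenced. With 1 library per group, no difference below has a replicate check, all intervals are 95% and cover counting error only, and spread between mice or cultures is unknown.

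NKR-P1 receptors and their Clr ligands lie side by side in the natural killer gene complex. Clec2d encodes Clr-b, a ligand found on most blood-derived cells, and Klrb1b encodes its inhibitory receptor NKR-P1B, which lets NK cells and some T cells sense whether a neighbouring cell carries Clr-b. Clec2i encodes Clr-g, a ligand of the receptor NKR-P1F encoded by Klrb1f. Klrb1c encodes NKR-P1C, the activating receptor known as NK1.1, which signals through the adaptor chain encoded by Fcer1g. Many gut intraepithelial T cells carry NK-type receptors, and the so-called natural ones, with gamma delta or CD8 alpha alpha surface proteins, express Fcer1g.

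All 5 genes lie on chromosome 6, within 408 kb between bases 128778485 and 129186534 of GRCm38 (mm10), and all are protein-coding in GENCODE M21. Klrb1c (128778485 to 128789215) and Klrb1b (128813706 to 128826331) are on the minus strand. Clec2i (128887588 to 128898167), Klrb1f (129045901 to 129057464) and Clec2d (129180615 to 129186534) are on the plus strand. Because a 3' kit counts transcript ends, the last 500 bases of each gene's longest transcript were compared in words of 60 bases. For each member, and for the neighbours Klrb1a and Klrb1, 0 of 441 words were found whole in a transcript of another gene. Ends of other transcripts and near matches were not examined. The 250 bases before the start of 3 members are shown (RefSeq, GRCm38.p6, plus strand). Clec2d is shown for the gene that differed most between the libraries, and Clec2i and Klrb1f as a ligand and receptor pair whose summed levels were both higher in cells with a Tcf7 UMI. Capitals mark the interferon response letters in Clec2d (GAAA, any 2 bases, GAAA) and the TCF letters TCAAAG in Klrb1f.
Clec2d chr6:129180365-129180614: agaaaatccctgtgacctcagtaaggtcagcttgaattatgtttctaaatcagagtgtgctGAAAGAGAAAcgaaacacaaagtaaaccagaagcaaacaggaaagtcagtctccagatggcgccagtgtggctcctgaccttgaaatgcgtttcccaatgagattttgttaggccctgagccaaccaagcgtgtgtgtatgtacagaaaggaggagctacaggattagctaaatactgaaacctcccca
Clec2i chr6:128887337-128887586: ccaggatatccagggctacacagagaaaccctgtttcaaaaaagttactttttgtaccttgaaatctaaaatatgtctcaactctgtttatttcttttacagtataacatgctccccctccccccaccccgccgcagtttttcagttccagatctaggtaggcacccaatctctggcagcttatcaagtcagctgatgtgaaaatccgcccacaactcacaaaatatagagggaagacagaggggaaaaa
Klrb1f chr6:129045651-129045900: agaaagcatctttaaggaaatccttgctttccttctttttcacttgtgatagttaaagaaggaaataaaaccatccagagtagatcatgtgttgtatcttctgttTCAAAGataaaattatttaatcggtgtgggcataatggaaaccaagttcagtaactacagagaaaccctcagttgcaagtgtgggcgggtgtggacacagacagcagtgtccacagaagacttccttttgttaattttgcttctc
On either strand, the interferon response letters were present in 3.04% and TCAAAG in 14.1% of 27025 upstream windows of this length. Of the 5 members, only Clec2d held the first and only Klrb1f the second. The RUNX letters TGTGGT (14.2% of windows) were in Klrb1c, and the T-box letters GGTGTGA (3.31%) were in none of the 5. The 4 motifs were searched separately, and a match is a description of letters and not a measured site. The upstream windows of Klrb1c and Klrb1a, a receptor gene outside the 5, were identical at 188 of 210 aligned bases (89.5%). The windows of Clec2d and Clec2i were identical at 121 of 200 (60.5%).

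The libraries held like totals of molecules, and SAP cells were somewhat deeper. Control held 5737 barcodes and 19142384 unique molecular identifiers (UMIs, counted RNA molecules) with a median of 3121 per barcode, and SAP held 5203, 19144320 and 3351. After filters, cells with at least 1 UMI of Cd3d, Cd3e or Cd3g were called CD3-gated cells, 5251 in Control and 4651 in SAP, with 17497961 and 17459375 UMIs. All 7 T cell markers listed were detected in both. Levels are CPM, the gene's UMIs per 1000000 UMIs of the same cells, and since a 3' kit counts 1 end per molecule they are not divided by length. The median mitochondrial share was 1.18% in Control and 1.47% in SAP. Barcode sequences found in both libraries numbered 6, and 5 of these passed the filters.

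The CD3 gate also let in deep cells with RNA of another kind, marked by Folr1, a folate receptor gene. CD3-gated cells with a Folr1 UMI were 27 in Control (0.514% of cells and 2.46% of UMIs) and 70 in SAP (1.51% and 7.37%). Their median depth was 4457 UMIs in Control and 6764 in SAP, and they held 15 and 39 Clec2d UMIs. A stricter set, not limited by the CD3 gate, was the kept cells with at least 3 Folr1 UMIs. These were 21 cells in Control and 50 in SAP, with median depths of 24601 and 30678. Their T cell markers summed to 137 and 114 CPM, against 7066 and 6658 in all CD3-gated cells, and Clec2d was nearly absent, at 3.60 and 1.36 CPM (2 UMIs in each library). Such cells dilute a sum of UMIs more in SAP than in Control, so values without any cell that holds a Folr1 UMI are given beside many results. They are not given beside every gate level, share or receptor ratio. With that exclusion the SAP over Control ratio was 0.871 for Klrb1c, 1.25 for Klrb1b and 0.983 for Klrb1f. That exclusion was chosen after the data were seen.

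Clec2d was the most abundant member and the one with the lowest ratio between libraries. It gave 5287 UMIs in Control, 302 CPM (294 to 310), and 3742 in SAP, 214 CPM (207 to 221). The SAP over Control ratio was 0.709 (0.680 to 0.740). Without Folr1 cells the levels were 309 and 229 CPM and the ratio 0.741 (0.711 to 0.773), so the gap was smaller but the level stayed lower in SAP. For scale, genes that reached 20 CPM in either library, and 50 UMIs in the sum of the 2, were called eligible. Of 5682 eligible genes, whose median log2 ratio was 0.04, 142 (2.5%) were at least 1.2-fold lower in SAP and 700 (12.3%) at least 1.2-fold higher. Without Folr1 cells these shares were 1.54% and 6.57% of 5467. The eligible members were 2 of 5, Clec2d and Clec2i. Clec2d lay past 1.2-fold lower, which is what it was chosen for, and Clec2i lay within 1.2-fold. Of 1411 eligible genes of at least 100 CPM in Control, 3 had a ratio at or below 0.709. They were Clec2d itself and the immunoglobulin genes Igkc (758 and 5.33 CPM) and Ighg2b (113 and 0 CPM). Since Clec2d was chosen for its lower level in SAP, its place here follows from that choice and is no further evidence.

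**Figure D1:**
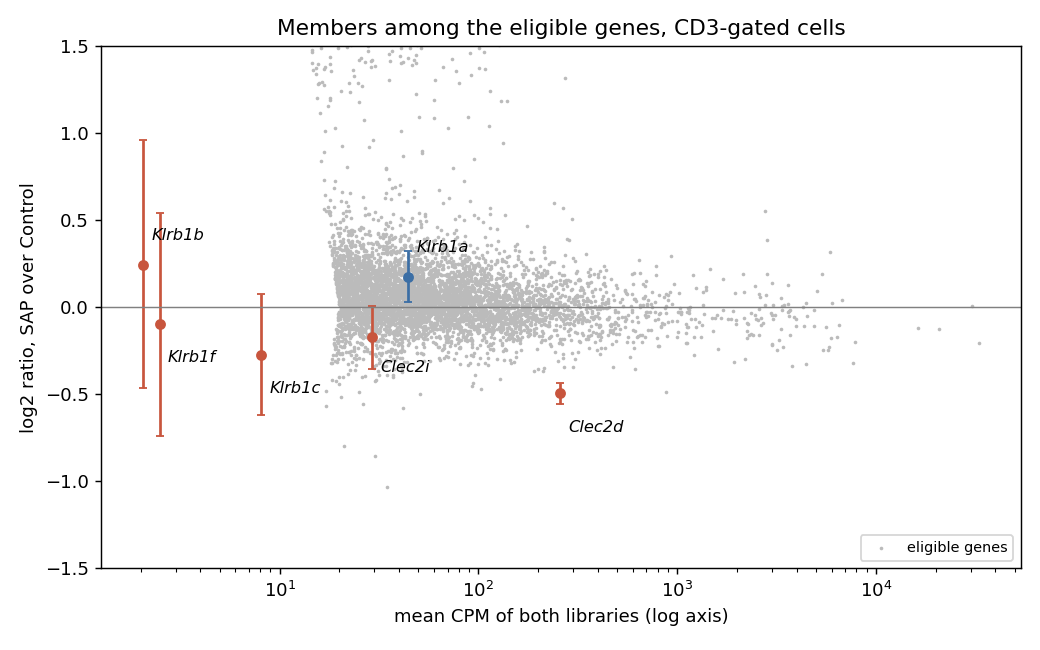
Log2 SAP over Control ratio (vertical axis, shown from -1.5 to 1.5) against the mean CPM of both libraries (log axis) for CD3-gated cells; grey points are eligible genes, of which 133 lie outside the vertical range and 1 with no UMI in 1 library is not drawn, and red points are the 5 members and the blue point Klrb1a, with 95% counting intervals. Clec2d, which was chosen for a lower level in SAP, sits at a ratio of 0.709, below genes of like level. Clec2i and the receptors have intervals that include or lie near 0.

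The share of cells with a Clec2d UMI was 48.2% in Control and 42.6% in SAP. Since depth differed, each cell was thinned to 1000 UMIs and shallower cells were left out (396 in Control and 380 in SAP). Of thinned cells, 24.6% of 4855 in Control (23.3 to 25.8) and 19.3% of 4271 in SAP (18.2 to 20.6) held a Clec2d UMI. Cells with exactly 1 UMI made up 18.2% in Control and 15.4% in SAP, cells with 2 made up 4.94% and 2.86%, and cells with 3 or more 1.40% and 1.08%. The gap was therefore present in cells with 1 and with 2 UMIs, and the intervals for 3 or more (1.09 to 1.77 and 0.790 to 1.43) overlapped. The 10 cells with the most Clec2d UMIs held 2.35% of its UMIs in Control and 2.83% in SAP, so the level did not rest on a few cells. As background, kept cells with no T cell receptor or CD3 UMI (17 in Control and 18 in SAP, median depths 2137 and 1886.5) held 4 and 3 Clec2d UMIs, 28.1 and 17.9 CPM. Their thinned shares were 11.8% (1.46 to 36.4) and 11.1% (1.38 to 34.7), on too few cells to place the background closely. In Control these cells carried plasma cell RNA and in SAP epithelial RNA.

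By surface-gene gate, Clec2d was present in every class of T cell. Gates were set on UMIs of Trdc (gamma delta receptor), Cd8b1 (CD8 beta), Cd8a without Cd8b1 (called Cd8a-only) and Cd4, each without the other gate genes, apart from Cd8a beside Trdc or Cd8b1. In Control the order was Trdc (315 CPM, 2208 cells), Cd8a-only (312, 1436 cells), Cd4 (279.67, 183 cells), cells with none of the 4 genes (277, 758 cells) and Cd8b1 (265, 535 cells). In SAP it was Cd4 (236, 164 cells), Cd8a-only (229, 1183 cells), Trdc (223, 1991 cells), Cd8b1 (196, 540 cells) and none (173, 648 cells). No neighbours in either order differed beyond their counting intervals. Without Folr1 cells the order was Cd8a-only (321), Trdc (319.9), none (298), Cd4 (276) and Cd8b1 (265) in Control, and Cd8a-only (246), none (239), Cd4 (238), Trdc (229) and Cd8b1 (199) in SAP. Cd8b1 cells were then lowest in both libraries, and their intervals (242 to 289.9 and 179.9 to 219.8) lay below those of Cd8a-only cells (305 to 337 and 231 to 261). Median depth was 3152 to 3375 UMIs over the 4 gates in Control and 3458 to 3632 in SAP, and 2368 and 2305.5 in cells with none of the 4.

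The lower Clec2d level in SAP was seen in 4 of the 5 classes with an interval below 1. In Trdc cells the ratio was 0.709 (0.666 to 0.754), and 2.58% of 5668 eligible genes there were at least 1.2-fold lower. It was 0.733 (0.677 to 0.795) in Cd8a-only cells, where 5.29% of 5784 genes were. Cd8b1 cells gave 0.738 (0.645 to 0.845), in a class where 13.2% of 5488 genes were as low. In Cd4 cells, with 194 and 149 Clec2d UMIs, the ratio was 0.845 (0.678 to 1.05), so no difference could be seen at this depth, and 14.5% of 3289 genes were past that fold. Cells with none of the 4 genes gave the lowest ratio, 0.626 (0.547 to 0.716), in a class where 29.7% of 5939 genes were at least 1.2-fold lower. That value moved to 0.803 (0.701 to 0.918) without Folr1 cells, when the levels were 298 and 239 CPM. The other 4 ratios moved to between 0.715 and 0.861. The thinned shares also lay lower in SAP in all 5 classes, from 25.4% against 19.2% in Trdc cells to 21.0% against 18.3% in Cd4 cells. Only in Trdc cells were the intervals of the 2 libraries apart. They overlapped in every other class, and widely in Cd4 cells.

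**Figure D2:**
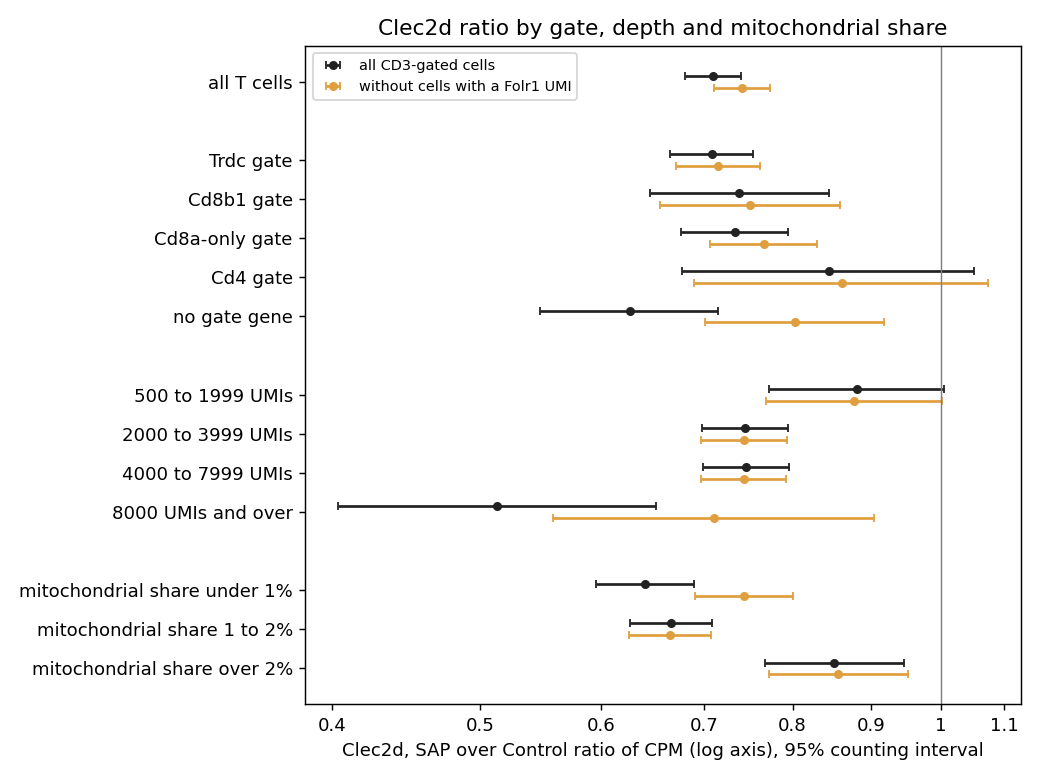
SAP over Control ratio of the Clec2d level (log axis) with 95% counting intervals, for all CD3-gated cells and by gate, by UMIs per cell and by mitochondrial share; black points use all cells and orange points leave out cells with a Folr1 UMI. Every point lies below 1, and the cells with none of the 4 gate genes and those of 8000 UMIs and over move most without Folr1 cells, from 0.626 to 0.803 and from 0.513 to 0.711.

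The ratio also differed by depth and by mitochondrial share. Clec2d fell with depth within each library, from 367 CPM in Control cells under 2000 UMIs to 124 CPM in those of 8000 and over, and from 324 to 63.4 CPM in SAP. Without Folr1 cells the deepest bin stood at 178 CPM in Control and 127 in SAP, so the fall with depth was smaller but present in both libraries. Its ratio was 0.881 (0.772 to 1.01) in the shallowest bin, which includes 1. It was 0.745 (0.698 to 0.795) from 2000 to under 4000 UMIs, 0.746 (0.699 to 0.795) from 4000 to under 8000 and 0.513 (0.404 to 0.651) above. Folr1 cells were 8 of 82 Control and 34 of 134 SAP cells in the deepest bin, and without them its ratio was 0.711 (0.558 to 0.905). By mitochondrial share, without Folr1 cells, the ratio was 0.744 (0.691 to 0.80) under 1%, 0.665 (0.626 to 0.708) from 1 to 2%, and 0.857 (0.772 to 0.951) over 2%. Cells over 2% were 21.8% of CD3-gated cells in Control and 31.2% in SAP. The level was lower in SAP in each of these 7 bins, with an interval that includes 1 in the shallowest. The part of depth and mitochondrial share in the overall ratio was not tested.

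Clec2i, the gene of the ligand Clr-g, was less abundant, with 540 UMIs in Control, 30.9 CPM (28.3 to 33.6), and 478 in SAP, 27.4 CPM (24.98 to 29.9). Its ratio was 0.887 (0.783 to 1.005), and 0.935 (0.825 to 1.06) without Folr1 cells. Thinned shares of cells were 2.25% (1.85 to 2.70) in Control and 2.53% (2.08 to 3.05) in SAP, which overlap. The order of the gates was not that of Clec2d. Cd8a-only cells were lowest in both libraries, at 24.1 CPM (19.9 to 28.9) in Control and 19.5 (15.7 to 24.1) in SAP. Cd8b1 cells stood at 38.4 (30.0 to 48.4) and 33.0 (25.6 to 41.9), and neither interval overlaps that of Cd8a-only cells in its library. Trdc cells lay between, at 29.6 and 29.1 CPM, and in Cd4 cells 22 and 28 UMIs gave 31.7 (19.9 to 48.0) and 44.4 (29.5 to 64.2).

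Klrb1c, the gene of NK1.1, was the most abundant of the 3 receptors. It gave 155 UMIs in 124 Control cells, 8.86 CPM (7.52 to 10.4), and 128 UMIs in 106 SAP cells, 7.33 CPM (6.12 to 8.72). The ratio of 0.828 (0.650 to 1.05) includes 1. Its level followed the gates. Trdc cells had 10.6 CPM (8.46 to 13.2) in Control and 9.03 (7.03 to 11.4) in SAP, and Cd8a-only cells had 9.42 and 9.43. Cd8b1 cells had 1.62 CPM (0.334 to 4.74, 3 UMIs) and 0.985 (0.119 to 3.56, 2 UMIs), below the intervals of both of these classes in each library. In Cd4 cells 3 and 1 UMIs were counted.

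Klrb1b, which encodes the receptor for the Clec2d product, was rare. It gave 33 UMIs in 25 Control cells and 39 in 23 SAP cells, 1.89 CPM (1.30 to 2.65) and 2.23 (1.59 to 3.05), with a ratio of 1.18 (0.726 to 1.94). The 10 cells with the most held 54.5% and 66.7% of its UMIs, so a few cells set its level, and intervals that treat UMIs as independent are too narrow for this gene. In Control, 18 UMIs lay in Cd8a-only cells against 8 in SAP, while 3 lay in cells with none of the 4 gate genes against 13 in SAP, those 13 in 5 cells. From 2000 to under 4000 UMIs per cell 22 UMIs in Control stood against 3 in SAP, and from 4000 to under 8000 UMIs 9 stood against 26, so its ratio had no single direction. No Klrb1b UMI was found in Cd4 cells of either library, where 3 counts would be 4.32 and 4.76 CPM.

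Klrb1f, the receptor gene for the Clec2i product, gave 45 UMIs in 45 Control cells and 42 in 38 SAP cells, 2.57 CPM (1.88 to 3.44) and 2.41 (1.73 to 3.25). The ratio was 0.935 (0.599 to 1.46). Its UMIs were spread over cells, with at most 2 in any cell. Trdc cells were at 1.43 and 1.57 CPM, on 11 and 12 UMIs. Cd4 cells were at 11.5 CPM in Control (4.98 to 22.7, 8 UMIs), above the interval of Trdc cells there (0.713 to 2.55), and at 4.76 in SAP (0.981 to 13.9, 3 UMIs). Cd8b1 cells held 5 UMIs in Control, 2.70 CPM, and 13 in SAP, 6.40 CPM (3.41 to 10.9), the latter above Trdc cells (0.811 to 2.74). For all 3 receptors the cells with no T cell receptor UMI held 0 UMIs, which allows up to 21.1 CPM in Control and 17.9 in SAP, above the receptors' own levels. The differences between gates of the same library were the closer guide to background.

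**Figure D3:**
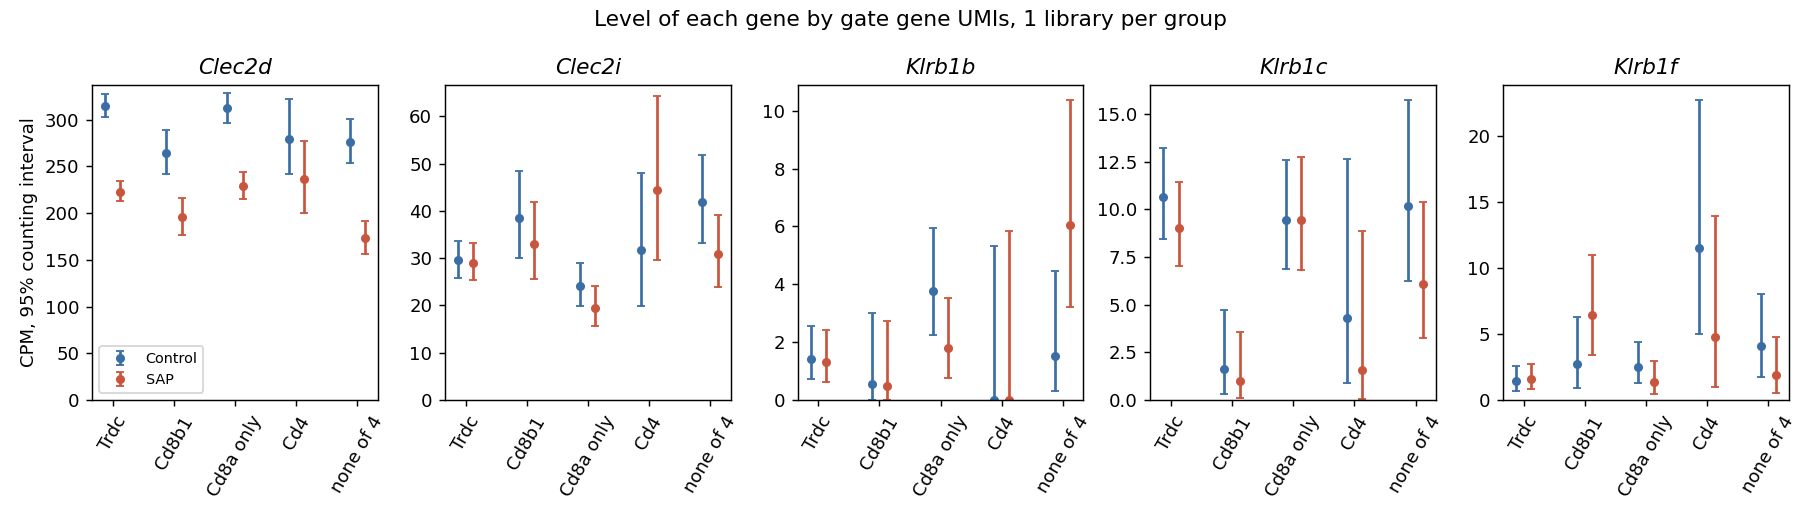
Level of each of the 5 members in CPM (each panel with its own axis from 0) by gate, for Control (blue) and SAP (red), 1 library per group, with 95% counting intervals. Clec2d is present in all 5 classes and lower in SAP, Clec2i is lowest in Cd8a-only cells, Klrb1c is low in Cd8b1 cells (1.62 and 0.985 CPM), and Klrb1b and Klrb1f rest on 0 to 18 UMIs a point.

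Within the libraries, members differed in level between cells with and without a UMI of some state genes, with directions that varied by gene. These splits used T cells without Folr1 UMIs and a list of 16 state genes chosen after the data were seen, so they are a description; each comparison is within 1 library. Fcer1g, which marks natural intraepithelial T cells and encodes the adaptor of activating NKR-P1 receptors, had a UMI in 76.2% of Trdc cells and 69.8% of Cd8a-only cells in Control, against 8.99% of Cd8b1 and 9.94% of Cd4 cells. SAP gave 75.1%, 69.9%, 8.60% and 1.24%. The splits by state gene were not made within gates, so gate class and cell state cannot be told apart. Cells with a UMI of any gene are deeper: median depth was 3386 with and 2783.5 without Fcer1g in Control, and 3768 and 2952 in SAP.

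The receptor Klrb1c was higher with Fcer1g, at 12.1 CPM against 3.93 in Control, 3.09-fold (2.0 to 4.95), and 10.6 against 3.44 in SAP, 3.09-fold (1.92 to 5.19). Klrb1b had 30 of its 33 UMIs with Fcer1g in Control and 35 of 39 in SAP, 5.94-fold (1.85 to 30.4) and 5.30-fold (1.89 to 20.5). Klrb1f went the other way, at 1.40 CPM against 4.56 in Control, a ratio of 0.308 (0.153 to 0.592), and 1.49 against 4.26 in SAP, 0.349 (0.172 to 0.685). Clec2i was also lower with Fcer1g, at 24.1 against 43.9 CPM in Control, 0.550 (0.462 to 0.653), and 24.6 against 37.4 in SAP, 0.659 (0.548 to 0.792). Clec2d was 1.19-fold higher with Fcer1g in Control (1.13 to 1.27) and 1.05-fold in SAP (0.986 to 1.13), the latter including 1.

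Tcf7, a transcription factor gene of naive, memory and stem-like T cells, marked the cells with the most Clec2i. Cells with a Tcf7 UMI had 86.5 CPM of Clec2i against 21.9 without in Control, 3.95-fold (3.31 to 4.71), and 77.2 against 20.9 in SAP, 3.70-fold (3.07 to 4.46). Klrb1f was likewise higher, 2.15-fold (1.01 to 4.29, 12 UMIs with Tcf7) in Control and 3.22-fold (1.58 to 6.30, 15 UMIs) in SAP. For Klrb1c the Tcf7 ratios were 1.21 (0.768 to 1.84) and 0.972 (0.563 to 1.59), and for Clec2d 0.879 (0.811 to 0.952) and 0.880 (0.80 to 0.967). Klrb1b had 0 of 33 UMIs in Tcf7 cells in Control and 14 of 39 in SAP, on few cells.

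The Tcf7 difference in Clec2i was present in both depth bins checked, which leave out cells under 2000 UMIs and those of 8000 and over. With Tcf7 it was 2.55-fold higher (1.82 to 3.52) in Control and 3.62-fold (2.51 to 5.15) in SAP among cells of 2000 to under 4000 UMIs, and 5.58-fold (4.29 to 7.27) and 4.06-fold (3.15 to 5.24) among those of 4000 to under 8000. With Fcer1g, Clec2i was lower in 3 of these 4 sets of cells, at ratios of 0.439 to 0.503, and in SAP cells of the shallower of these bins the ratio was 0.920 (0.656 to 1.29). Klrb1c was higher with Fcer1g in all 4, from 2.06-fold (1.04 to 4.35) to 7.50-fold (2.81 to 28.3). Klrb1f was lower with Fcer1g in all 4, from 0.228 (0.0838 to 0.574) to 0.770 (0.143 to 4.14), and 3 of those intervals include 1. With Tcf7, Klrb1f was 2.41-fold to 3.55-fold higher in the 4 sets, and 3 of the 4 intervals include 1. Klrb1b with Fcer1g was 1.54-fold to 7.05-fold higher, and again 3 of 4 intervals include 1, so both receptors had too few UMIs for this check. Clec2d with Tcf7 stood at 0.888 to 0.935 and 3 of the 4 intervals include 1. With Fcer1g, Clec2d in Control was 1.23-fold (1.13 to 1.33) higher in the shallower of these bins and 1.27-fold (1.15 to 1.41) in the deeper. In SAP the values were 1.18-fold (1.06 to 1.31) and 1.05-fold (0.948 to 1.17).

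Of the same state gene list, Xcl1 and Tnfrsf9 are given in more detail below, but they were not the only other genes that split members. In Control and SAP, Clec2i was 1.85-fold and 1.34-fold higher with Kit, and 1.39-fold and 1.62-fold higher with Bcl6. With Itgae, Clec2i was lower, at 0.635 and 0.552. Clec2d was at 0.893 and 0.879 with Cd160, and at 0.941 and 0.837 with Isg15. Klrb1c was higher with Kit in both libraries. None of these intervals includes 1. Some other pairs of a state gene and a member showed no difference. With Nr4a1 the ratios in Control and SAP were 0.976 and 0.838 for Clec2i and 1.06 and 0.969 for Klrb1c. Klrb1c with Ifng was at 0.785 and 0.652, and all these intervals include 1. Other members did differ with these genes. Clec2i with Ifng was at 0.763 (0.610 to 0.946) in Control and 0.656 (0.513 to 0.830) in SAP. With Nr4a1, Clec2d was at 0.979 (0.928 to 1.03) in Control and 0.825 (0.773 to 0.881) in SAP. Klrb1b with Nr4a1 was at 1.39 (0.661 to 3.0) and 2.56 (1.21 to 5.88), on few UMIs. Xcl1, the gene of the chemokine lymphotactin, went with 3 members: Clec2i was 2.37-fold and 2.10-fold higher in Xcl1 cells of Control and SAP, Klrb1c 2.22-fold and 1.97-fold, and Klrb1f 2.38-fold and 2.42-fold, with all 6 intervals above 1. Tnfrsf9 is the gene of the costimulatory receptor 4-1BB. Klrb1c was 1.79-fold (1.27 to 2.51) and 1.56-fold (1.04 to 2.30) higher in Tnfrsf9 cells, whereas Clec2i was lower, at 0.620 (0.490 to 0.778) and 0.583 (0.443 to 0.756). Klrb1b was 4.62-fold (2.19 to 10.1) and 2.48-fold (1.22 to 4.89) higher there, on 20 and 16 UMIs with Tnfrsf9. Since a few cells held most Klrb1b UMIs, these intervals are too narrow. Median depth was 3618 with and 3048 without Xcl1 in Control, and 3972 and 3305 in SAP. With and without Tnfrsf9 it was 3722 and 2961 in Control, and 4297 and 3232 in SAP. Clec2d with Tnfrsf9 was at 1.08 (1.01 to 1.14) in Control and 1.08 (0.999 to 1.17) in SAP. From 2000 to under 4000 UMIs it was at 1.15 (1.05 to 1.26) and 1.16 (0.9999 to 1.33). From 4000 to under 8000 UMIs it was at 1.14 (1.03 to 1.25) and 1.21 (1.09 to 1.34). The other differences in this paragraph were not checked within depth bins.

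**Figure D4:**
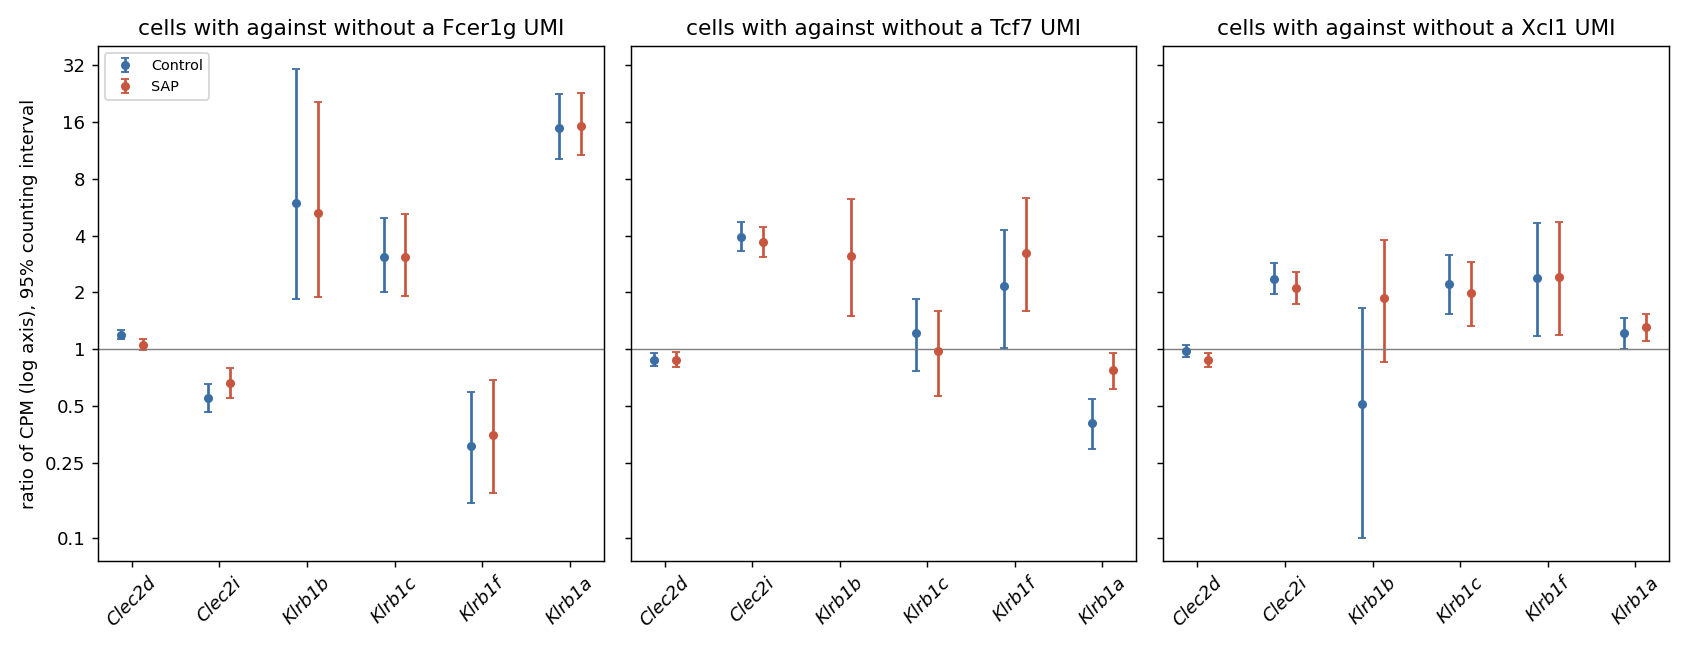
Ratio of the level in cells with a UMI of Fcer1g, Tcf7 or Xcl1 to that in cells without (log axis, 95% counting intervals), for the 5 members and Klrb1a in Control (blue) and SAP (red), cells with a Folr1 UMI left out; Klrb1b with Tcf7 in Control is not drawn, since it had 0 UMIs there. Klrb1b, Klrb1c and Klrb1a lie above 1 with Fcer1g and Clec2i and Klrb1f below, while with Tcf7 Clec2i stands at 3.95 and 3.70.

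Ligand and receptor transcripts were also read in the same cells at a fixed depth of 1000 UMIs, where receptors are rare. Clec2d was found in 14 of 46 cells with a Klrb1c UMI in Control and 9 of 31 in SAP, 30.4% and 29.0%, against 24.5% and 19.3% of cells without, and the intervals overlapped. It was found in 1 of 7 and 0 of 4 cells with a Klrb1b UMI, too few for a share. Clec2i and Klrb1f occurred together in 2 cells in each library, of 109 and 108 cells with Clec2i. That is 1.83% (0.223 to 6.47) and 1.85% (0.225 to 6.53), against 0.169% (0.0728 to 0.332) and 0.288% (0.149 to 0.503) of cells without Clec2i, and the intervals overlapped.

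Among the other genes of the family, Klrb1a (NKR-P1A, an activating receptor) was the most abundant receptor gene. It gave 731 UMIs in Control, 41.8 CPM, and 823 in SAP, 47.1 CPM, a ratio of 1.13 (1.02 to 1.25), and 1.18 (1.07 to 1.31) without Folr1 cells. Its log2 ratio was 0.17, and scaling by TMM factors lowers every log2 ratio by 0.10. Like Klrb1c it was low in Cd8b1 cells. Cd8a-only cells had 69.1 CPM in Control and 90.1 in SAP (1.30, 1.12 to 1.51, where 16.9% of genes were at least 1.2-fold higher), Trdc cells 44.2 and 48.8, Cd8b1 cells 5.95 and 3.45, and Cd4 cells 0 UMIs in both libraries. With Fcer1g it was 14.9-fold (10.2 to 22.5) and 15.3-fold (10.7 to 22.7) higher. Klrb1 (the inhibitory receptor NKR-P1G) gave 183 and 149 UMIs, a ratio of 0.816 (0.653 to 1.02), and was 4.08-fold (2.63 to 6.63) and 4.60-fold (2.76 to 8.13) higher with Fcer1g. Of 10 such genes in the files, 1 (Klrb1a) was eligible and lay within 1.2-fold. The ligand gene Clec2h, whose product Clr-f is made by gut epithelium, gave 4 and 2 UMIs, Clec2g, Clec2j and Clec2m gave 0 in both libraries, and Clec2e, Clec2f, Clec2l and Klrb1-ps1 gave 0 to 3.

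Genes that carry the NKR-P1 signal were counted next. Of 12 listed, 11 were eligible and 0 of these passed 1.2-fold in either direction, where 12.3% of all eligible genes were higher and 2.5% lower, so 0 of 11 is near the background. The list had a median log2 ratio of -0.02 against 0.04 over all eligible genes. Fcer1g stood at 1161 CPM in Control and 1047 in SAP (0.901), Lck, the kinase bound by activating NKR-P1 tails, at 278 in both (1.0), and Ptpn6, the phosphatase SHP-1 recruited by inhibitory receptors, at 103 and 111 (1.08). Syk gave 1 and 5 UMIs. Of 19 other lectin-like genes of the NK gene complex 6 were eligible and 0 passed 1.2-fold, which is again near those shares, and their median log2 ratio was -0.06. Klrd1 (CD94) had 823 and 787 CPM (0.956), Cd69, an early activation gene and close relative of the Clec2 genes, 502 and 472 (0.941), Klre1 84.4 and 76.5 (0.907), Klra5 62.4 and 59.7 (0.957), Klra6 16.9 and 20.1 (1.19), and Klra7 25.8 and 29.2 (1.13). Klra3, below the eligible level, had 236 and 156 UMIs, a ratio of 0.662 (0.538 to 0.814).

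The genes most like each eligible member across the 10 sums of 5 classes in 2 libraries were found by Pearson's r of log2(CPM + 1) among 5203 genes. For Clec2d they were Atp6v0c (0.91), Ftl1 (0.90), Gpr65 (0.89) and Tcp11l2 (0.89). Without Folr1 cells 4 other genes led, Gpx4 (0.84), Arf6 (0.82), Arhgef3 (0.82) and Mapk14 (0.81), so the list for Clec2d was not stable. For Clec2i they were Arpc3 (0.93), Ubald2 (0.92), Chd3 (0.90) and Hnrnpa0 (0.89), and 3 of these 4 stayed without Folr1 cells, when Cd69 (0.90) replaced Chd3. The 10 points share libraries, depth and cells' origin, and these values are a description.

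Markers of other cells were read in the same CD3-gated sums. Plasma cell genes moved most, with a summed level of 842 CPM in Control, most of it Igkc (758), and 28.2 in SAP, most of it Igha (21.6), with Mzb1 at 0 in both. The 4 B cell genes summed to 26.8 and 21.8 CPM and the 6 epithelial genes to 135 and 134. The 8 dendritic cell and macrophage genes summed to 57.6 and 52.0, nearly all Itgax, with Clec9a, Cd209a and Adgre1 at 0 in both libraries and Flt3 at 0 in SAP. The 6 genes of NK and innate lymphoid cells summed to 209 and 204 CPM, mostly Rora, with Klra8 at 0 in Control. The part of plasma cell RNA in the Clec2d ratio was not tested, and plasma cell RNA was not read by gate or depth bin.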

How the data were processed

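Per the labels' protocols, a 10x Genomics version 3 kit for transcript 3' ends was used. The authors deposited raw counts of UMIs per gene and barcode, and per the file headers Cell Ranger 7.1.0 wrote them; mm10 and Seurat are named in the submitters' processing notes. The annotation version and any earlier filter are not named there; every deposited barcode has at least 500 UMIs. Positions come from GENCODE M21 and upstream sequences from RefSeq.

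Barcodes were kept with at least 500 UMIs, 300 genes and at most 10% mitochondrial UMIs. Scrublet (scanpy 1.11.5) marked 1 barcode in each library by its automatic threshold, under 0.5%, so the top scores were removed up to 0.8% per 1000 barcodes (257 Control, 202 SAP). Kept cells numbered 5408 and 4826. UMIs were summed per library and class. Ratios carry an exact conditional binomial interval, CPM an exact Poisson interval and shares the Clopper-Pearson interval (scipy 1.17.1), each of 95%. Only the ratio interval was tried on simulated data. Those were Poisson counts, which share its assumption, so the trial does not cover UMIs clumped in a few cells. All 3 kinds of interval cover counting error only, and not spread between cells or libraries. No test was run and no p-value computed, since each group has 1 library. A count of 0 was given the level of 3 counts. TMM factors came from edgeR 4.0.16 and median-of-ratios factors from DESeq2 1.42.0, with no test from either.

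The named genes were the 5 members, 3 fixed lists (family, signalling, NK complex lectins) with their eligible genes named, and the 4 genes most like each eligible member; genes named beyond these, such as Klra3, Clec2h and the immunoglobulin genes, were chosen after their values were seen. The members and lists were chosen with earlier results of these data known. Alternatives changed scaling, cell filters, doublet removal, the T cell gate, weighting, gates, thinning and gene filters.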

Additional observations from a re-analysis of the deposited data

How the results depend on the processing

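Of 122 alternative values computed, 17 moved beyond their counting interval or, for counts of genes, by over 1.5 times. Another 10 values, of 8 results on Clec2i and the receptors, changed sign within intervals that include no difference; examples are Klrb1b in all CD3-gated cells (-0.25 with cells weighted equally and -0.20 without its 10 highest cells, against 0.24), Clec2i in Cd4 cells (-0.14 with any cell holding the gate gene, against 0.49) and the Klrb1f share (-0.13 at 2000 UMIs, against 0.67). No value of Clec2d changed sign. The log2 ratio of Clec2d in CD3-gated cells stayed negative over 11 alternatives, from -0.60 to -0.36, against -0.50 as reported. It was -0.60 with TMM factors, -0.58 with median-of-ratios factors, -0.36 with each cell weighted equally and -0.43 without Folr1 cells. In Cd4 cells it was -0.87 when 2 UMIs of Cd4 were required, and in cells with none of the 4 gate genes -0.32 without Folr1 cells. Without thinning, the log2 ratio of shares was -0.18. The ranges were -0.27 to -0.10 for Clec2i, -0.37 to -0.20 for Klrb1c, -0.32 to -0.02 for Klrb1f and -0.25 to 0.32 for Klrb1b, whose sign was not fixed.

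The 700 genes at least 1.2-fold higher in SAP became 413 with TMM, 458 with median-of-ratios factors, 3009 with no minimum CPM, 284 at 50 CPM and 359 without Folr1 cells. The 142 lower became 451, 351, 862, 64 and 84 under the same settings. TMM lowered every log2 ratio by 0.10, to a median of -0.06. Apart from filters that change how many genes are counted, the cause was not tested. Depth limits the receptors: 9 pairs of a gate and a member held under 20 UMIs or a 0 and were given no alternative. No paired analysis was possible because each group has 1 library.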
